A study of Homo sapiens with 12 samples.

Results

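The 9 genes described here are ones that the transcription factor NRF2 is known to control. Most encode proteins of the glutathione and thioredoxin systems, while NQO1 encodes a quinone reductase and OSGIN1 a growth inhibitor. The genes were chosen by symbol as GCLM, GCLC, TXNRD1, SRXN1, NQO1, OSGIN1, TXN, GSR and PRDX1, which are 9 of the 43735 entries in the deposited count table. All 9 were among the 14085 genes that had enough reads to be tested.

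The cells were MM1S and MM1R, established multiple myeloma lines that differ in their sensitivity to glucocorticoids, MM1S being sensitive and MM1R resistant. RNA of 12 cultures was sequenced, with 3 untreated and 3 WA cultures of each line. WA is withaferin A, a plant steroidal lactone that binds to cysteine thiols, and was given at 1 µM for 3 h. Cultures of a group were of different passage number, 16, 22 and 23 for MM1S and 4, 6 and 7 for MM1R, and the WA and untreated cultures shared these numbers. Both groups of a line are cultures of that single line, and the lines shared no passage number, so that cell line and passage number cannot be told apart. Whether the untreated cultures received the solvent of WA is not given in the sources used here.

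Glutathione is a small thiol that cells make in consecutive steps, of which the first, the joining of glutamate and cysteine, sets the rate. It is kept in its reduced form by glutathione reductase with NADPH, while thioredoxin, a small protein with a reactive pair of cysteines, is kept reduced by thioredoxin reductase, also with NADPH. In unstressed cells NRF2 is held by KEAP1 and degraded. When electrophiles modify cysteines of KEAP1, NRF2 accumulates, pairs with a small MAF protein and binds antioxidant response elements near its target genes. Plasma cells, from which myeloma arises, make large amounts of disulfide-bonded antibody and are known to depend on such thiol systems.

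In the GENCODE annotation of GRCh37, the genes of glutamate-cysteine ligase lie on chromosome 1 (GCLM, ENSG00000023909, bases 94350755 to 94375012, 7 exons) and chromosome 6 (GCLC, ENSG00000001084, 53362139 to 53481768, 16 exons). PRDX1 (ENSG00000117450) also lies on chromosome 1, at 45976586 to 46008404, with 6 exons. TXNRD1 (ENSG00000198431) spans 104609557 to 104744085 on chromosome 12 with 17 exons, and TXN (ENSG00000136810) spans 113006090 to 113018787 on chromosome 9 with 5 exons. SRXN1 (ENSG00000271303) is a gene of 2 exons on chromosome 20, at 627259 to 633844. NQO1 (ENSG00000181019, 69740899 to 69760571) and OSGIN1 (ENSG00000140961, 83964916 to 83999937) are both on chromosome 16, with 6 exons each. GSR is ENSG00000104687 and has 13 exons. Exon numbers are those of the canonical transcript. All 9 are protein-coding genes, and the counts are over whole genes, so that no exon, intron or UTR was measured apart.

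Because these genes are grouped by their control through antioxidant response elements, the stretches around their transcription starts were searched for the core of that element, TGACNNNGC, on both strands. RefSeq windows of 250 bases before to 50 bases after the start were at hand for 7 of the 9 genes, in 8 windows, as TXNRD1 has 2. The table is of build GRCh38.p14, and each window was placed by an exact match in GRCh37. The core was found in 3 windows of 2 genes, GCLM and TXNRD1, while 13.3% of all 35116 windows in the table hold it. The stretches below each hold a core in capitals with 15 bases on either side, read 5′ to 3′ on the strand of the gene, and are shown because they hold the letters of the core beside 2 of the genes that rose with WA. They come from the windows chr1:94374937-94375236 (minus strand) for GCLM, chr12:104609307-104609606 (plus strand) for the upstream start of TXNRD1 and chr12:104680560-104680859 (plus strand) for its downstream start.
GCLM: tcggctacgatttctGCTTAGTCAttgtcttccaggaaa
TXNRD1, upstream start: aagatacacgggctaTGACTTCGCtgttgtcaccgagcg
TXNRD1, downstream start: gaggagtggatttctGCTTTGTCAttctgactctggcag
With the start as base 0, these cores lie at bases -34 to -26, -99 to -91 and -102 to -94. The GCLM core and that of the downstream TXNRD1 start read in reverse on the gene's strand, and their stretches share 24 of 39 bases, with a longest identical run of 11. Some of these bases had to be shared, as the search fixes the letters of the core other than N. The stretches at the upstream TXNRD1 start shared fewer bases with GCLM, 6 for the core at -99 and 16 for another at -8. No background was computed for such sharing. A further core in the upstream TXNRD1 window, GCTCCGTCA, lies at bases -8 to 0. None of these 4 matches held TGACTCA, the core of an AP-1 site. Only the bases of each match were checked, in which its other reading, TGAGTCA, cannot occur. The windows of GCLC, NQO1, OSGIN1, SRXN1 and TXN held no match to TGACNNNGC, which says only that these letters are not in the windows. The window of OSGIN1 does hold TGACTCA. A match does not show that the stretch was bound.

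Total counts lay between 17625110 and 19368343 reads per library, with a median of 18555625. All 9 plasma cell markers were above 10 counts per 1000000 reads (CPM), with summed levels of 10919 to 12273 CPM in untreated MM1S, 9948 to 12354 in MM1S with WA, 16998 to 18686 in untreated MM1R and 13211 to 16938 in MM1R with WA. The last range lay below that of untreated MM1R, and its part in the results was not tested. The B-cell markers MS4A1, PAX5 and CD22 had at most 3 reads in any library, as did CD3D, NKG7, LYZ, COL1A2, DCN, KRT8, KRT19 and CDH1. The 5 T and NK cell markers summed to at most 11.9 CPM, the 4 stromal and endothelial markers to at most 31.5 CPM, and the 4 myeloid and 4 epithelial markers to at most 1.35 and 1.09 CPM. Among these, CD3E lay at 3.26 to 11.6 CPM, COL1A1 at 0.447 to 17.9 CPM and PECAM1 at 10.1 to 24.7 CPM. PECAM1 was thus above 10 CPM in every library, and the source of these reads was not tested. Both MM1S libraries of passage 16 stood apart from the other MM1S libraries. Their chi-square per degree of freedom was 24.3 to 47.1 against passages 22 and 23, which were at 8.36 (untreated) and 27.8 (WA) between themselves. Some MM1R libraries differed as widely, at 44.1 between untreated passages 4 and 7. MM1R with WA of passage 7 was at 45.0 and 37.6 against passages 4 and 6. These MM1R libraries were left out only singly. Deviations of both passage 16 libraries from the group means correlated at 0.74 with each other and at -0.44 to -0.65 with those of passages 22 and 23. As deviations cancel out within a group of 3, the first value pushes the others below 0, so that these are no separate sign of a difference. Results that rest on the passage 16 libraries are given with and without them.

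WA raised 6 of the 9 genes in both lines, namely both subunits of glutamate-cysteine ligase, thioredoxin reductase, sulfiredoxin, NQO1 and OSGIN1. TXN, GSR and PRDX1 did not pass the test in either line. A gene was called at a Benjamini-Hochberg adjusted p of 0.05 over all genes in edgeR's quasi-likelihood test, by which 7.55% of tested genes were higher with WA in MM1R and 6.25% in MM1S. The libraries of the 6 genes did not overlap between untreated and WA cultures in either line, which held for 17.3% of genes higher with WA in MM1R and 16.4% in MM1S. Of all genes, 699 were called higher in both lines. The median log2 fold change over the 9 genes was 0.57 in MM1R and 0.82 in MM1S, against 0.01 over all genes tested in each line. Reads on the 9 genes made up 0.111% to 0.12% of untreated MM1S libraries and 0.151% to 0.169% with WA, and 0.112% to 0.148% of untreated MM1R libraries and 0.143% to 0.163% with WA. Levels are normalised read counts in CPM of a whole culture, so that more cells with a transcript and more transcript per cell cannot be told apart.

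**Figure D1:**
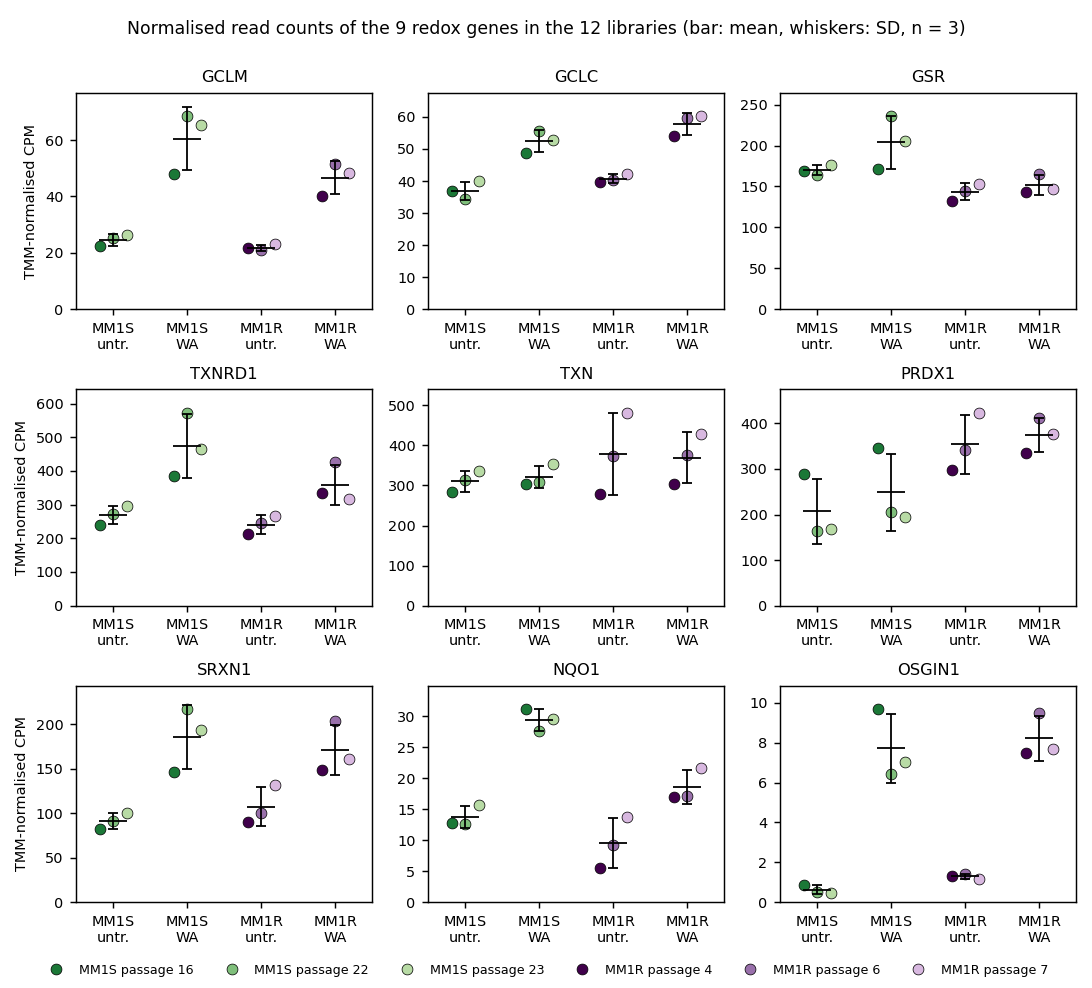
Normalised read count (CPM, linear axis from 0) of each of the 9 genes in the 12 libraries, by line and treatment, with points coloured by passage, the mean as a bar and the SD as whiskers (n = 3). The WA libraries of GCLM, GCLC, TXNRD1, SRXN1, NQO1 and OSGIN1 lie above the untreated ones in both lines, those of TXN, GSR and PRDX1 overlap, and passage 16 of MM1S lies apart for PRDX1.

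Glutamate-cysteine ligase consists of a catalytic subunit, GCLC, and a modifier subunit, GCLM, which raises its affinity for glutamate and makes it less sensitive to inhibition by glutathione. GCLM was at 22.3, 25.3 and 26.4 CPM in untreated MM1S of passages 16, 22 and 23 and at 47.8, 68.5 and 65.3 CPM with WA. In MM1R of passages 4, 6 and 7 it was at 21.7, 20.9 and 23.0 CPM untreated and at 40.1, 51.6 and 48.4 CPM with WA. Every WA library stood above every untreated library of either line. The log2 fold change was 1.29 (SE 0.15, edgeR adjusted p = 9.9e-05) in MM1S and 1.10 (SE 0.15, edgeR adjusted p = 0.00034) in MM1R, or 2.45-fold and 2.14-fold.

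GCLC, the catalytic subunit, also rose in both lines. It was at 36.7, 34.4 and 39.9 CPM in untreated MM1S and at 48.8, 55.6 and 52.8 CPM with WA, passages in the same order. In MM1R its levels were 39.6, 40.3 and 42.3 CPM untreated and 54.0, 59.6 and 60.2 CPM with WA. The WA libraries of both lines were again above all untreated ones. On the log2 scale it changed by 0.50 (SE 0.10, edgeR adjusted p = 0.0069) in MM1S and 0.51 (SE 0.10, edgeR adjusted p = 0.0051) in MM1R.

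Since both subunits make up 1 enzyme, their response was compared within each pair of cultures of the same passage. The log2 change of GCLM exceeded that of GCLC in 6 of 6 pairs, by 0.68, 0.73 and 0.89 in MM1S and by 0.43, 0.73 and 0.55 in MM1R. The mean difference was 0.67 ± 0.16 (SD, n = 6 pairs, two-sided exact sign-flip permutation test, p = 0.03125, also after adjustment over 4 such contrasts), which is the smallest p that 6 pairs allow. GCLM reads per GCLC read went from 0.669 ± 0.0647 to 1.15 ± 0.146 in MM1S and from 0.536 ± 0.0163 to 0.804 ± 0.0619 in MM1R (SD, n = 3). Taken per length of exon, over all GENCODE exons of a gene, this ratio is multiplied by a fixed factor, so that its rise is not a separate result. On that scale the ratio of GCLM to GCLC went from 1.06 ± 0.103 to 1.83 ± 0.232 in MM1S and from 0.852 ± 0.0259 to 1.28 ± 0.0983 in MM1R. These contrasts pair genes by their biochemistry and were set with earlier results of these data known. GCLM already had the larger fold change in these libraries, so that this p adds no separate support. All 4 contrasts gave the same smallest p, so that the adjustment could not change it.

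GSR, the reductase that returns oxidised glutathione to its thiol form, did not pass the test with WA. Its gene spans 30535583 to 30585363 on chromosome 8 in GRCh37. Its levels were 169, 164 and 176 CPM in untreated MM1S and 171, 236 and 205 CPM with WA. In MM1R they were 133, 145 and 154 CPM untreated and 143, 166 and 146 CPM with WA. The groups overlapped in both lines, and passage 7 of MM1R was lower with WA than without. On the log2 scale it changed by 0.26 (SE 0.12, edgeR adjusted p = 0.19) in MM1S and 0.08 (SE 0.12, edgeR adjusted p = 0.73) in MM1R.

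TXNRD1, the cytosolic thioredoxin reductase and a selenoprotein, rose in both lines. It was at 240.1, 271 and 296 CPM in untreated MM1S and at 385, 573 and 465 CPM with WA. MM1R had 212, 245 and 266 CPM untreated and 333, 427 and 316 CPM with WA. The highest WA library was passage 22 in MM1S and passage 6 in MM1R, and the groups did not overlap. The log2 fold change was 0.82 (SE 0.16, edgeR adjusted p = 0.0056) in MM1S and 0.57 (SE 0.16, edgeR adjusted p = 0.028) in MM1R. In MM1R the call was lost without untreated passage 4 (edgeR adjusted p = 0.082), untreated passage 6 (0.1) or WA passage 6 (0.11).

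TXN, the thioredoxin that this enzyme reduces, did not pass the test in either line. Its levels in MM1S were 283, 313 and 336 CPM untreated and 303, 309.8 and 354 CPM with WA. In MM1R they were 279.6, 374 and 482 CPM untreated and 303, 377 and 428 CPM with WA, so that the spread between passages was larger than any shift with WA. Its change on the log2 scale was 0.05 (SE 0.18, edgeR adjusted p = 0.9) in MM1S and -0.03 (SE 0.18, edgeR adjusted p = 0.93) in MM1R. GENCODE lists 7 processed pseudogenes of TXN, and how reads that match them were counted is not given in the sources used here.

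Within pairs, the log2 change of TXNRD1 exceeded that of its substrate TXN in 6 of 6 pairs, by 0.42 to 1.09, with a mean difference of 0.67 ± 0.24 (SD, n = 6 pairs, two-sided exact permutation test, p = 0.03125, adjusted p = 0.03125). It also exceeded that of GSR, the reductase of the parallel system, in 6 of 6 pairs, by 0.31 to 0.67, with a mean difference of 0.52 ± 0.13 (SD, n = 6 pairs, same exact test, p = 0.03125, adjusted p = 0.03125). TXNRD1 was already called with WA in these libraries and TXN and GSR were not, and the contrasts were set with earlier results known. These p, the smallest that 6 pairs allow, therefore add no separate support. TXNRD1 reads per TXN read were 0.865 ± 0.0172 in untreated MM1S and 1.48 ± 0.323 with WA, and 0.655 ± 0.102 in untreated MM1R and 0.99 ± 0.219 with WA. The ratios of the 3 MM1R cultures overlapped between treatments, while within each passage the WA culture had the higher ratio.

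**Figure D2:**
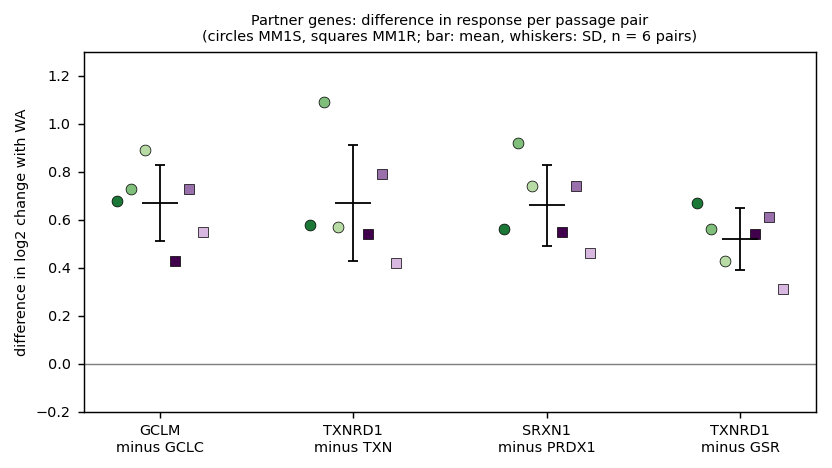
Difference between the log2 changes with WA of 2 partner genes (vertical axis, log2 of CPM + 0.5) in each pair of cultures of the same passage, MM1S as circles and MM1R as squares, with the mean as a bar and the SD over 6 pairs as whiskers. All points lie above 0, between 0.31 and 1.09.

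SRXN1 encodes sulfiredoxin, which repairs peroxiredoxins whose active cysteine has been overoxidised to sulfinic acid. It stood at 82.5, 91.5 and 100.03 CPM in untreated MM1S and at 146, 217 and 194 CPM with WA. In MM1R its levels were 89.7, 101 and 132 CPM untreated and 149, 203 and 161 CPM with WA. The groups did not overlap, although untreated passage 7 of MM1R came close to the lowest WA library. This was a log2 fold change of 1.02 (SE 0.18, edgeR adjusted p = 0.0023) in MM1S and 0.67 (SE 0.17, edgeR adjusted p = 0.021) in MM1R. The call in MM1R was lost without untreated passage 4 (edgeR adjusted p = 0.067), untreated passage 6 (0.1) or WA passage 6 (0.08). In GENCODE, 90.7% of the exon bases of SRXN1 also belong to ENSG00000270299, a protein-coding gene of the same strand. How reads on shared bases were counted is not given in the sources used here. The SRXN1 count may therefore hold reads of the other gene or lack some of its own.

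PRDX1 is an abundant cytosolic peroxiredoxin, which reduces hydrogen peroxide with electrons from thioredoxin and is a substrate of sulfiredoxin. Its levels in MM1S were 289.7, 164 and 168 CPM untreated and 345, 205 and 195 CPM with WA. In MM1R they were 297, 342 and 424 CPM untreated and 336, 411 and 377 CPM with WA. The MM1S libraries of passage 16 were 1.74-fold (untreated) and 1.72-fold (WA) above the mean of passages 22 and 23, which lay within 0.08 of each other on the log2 scale. The log2 fold change with WA was 0.26 (SE 0.24, edgeR adjusted p = 0.57) in MM1S and 0.08 (SE 0.24, edgeR adjusted p = 0.88) in MM1R. Within passage pairs of MM1S the changes were 0.25, 0.32 and 0.21, and the fit with replicate block gave an adjusted p of 0.05, which was not under the limit. In GENCODE, 29.8% of the exon bases of PRDX1 overlap MMACHC on the other strand, and 1 processed pseudogene is listed. Whether the counting used strand is not given in the sources used here.

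The log2 change of SRXN1 exceeded that of PRDX1 in 6 of 6 pairs, by 0.46 to 0.92, with a mean difference of 0.66 ± 0.17 (SD, n = 6 pairs, two-sided exact permutation test, p = 0.03125, adjusted p = 0.03125). SRXN1 was already called with WA in the same libraries and PRDX1 was not, so that this p adds no separate support. SRXN1 reads per PRDX1 read were 0.302 ± 0.00858 in untreated MM1R and 0.455 ± 0.0346 with WA. In MM1S they ranged from 0.285 to 0.594 untreated and from 0.422 to 1.06 with WA, passage 16 being the lowest in each.

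NQO1 is a flavoenzyme that reduces quinones with both electrons at once, and is widely used as a marker of NRF2 activity. In MM1S it was at 12.7, 12.7 and 15.7 CPM untreated and at 31.2, 27.6 and 29.5 CPM with WA. In MM1R it was at 5.57, 9.16 and 13.6 CPM untreated and at 16.9, 17.05 and 21.7 CPM with WA. The untreated MM1R libraries differed more among themselves than those of MM1S, yet all lay below the WA libraries of their line. The log2 fold change was 1.10 (SE 0.23, edgeR adjusted p = 0.0086) in MM1S and 0.97 (SE 0.24, edgeR adjusted p = 0.015) in MM1R. The MM1R call was lost without untreated passage 6 (edgeR adjusted p = 0.07) or WA passage 7 (0.058), and the MM1S call without both libraries of passage 16 (0.057). An lncRNA of the other strand, ENSG00000261602, overlaps 19.4% of the exon bases of NQO1.

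OSGIN1 encodes a growth inhibitor induced by oxidative stress. It had the lowest counts and the largest change of the 9 genes, with 9 to 26 reads per untreated library and 120 to 179 with WA. Its levels in MM1S were 0.881, 0.517 and 0.447 CPM untreated and 9.7, 6.41 and 7.04 CPM with WA. In MM1R they were 1.3, 1.43 and 1.17 CPM untreated and 7.47, 9.51 and 7.67 CPM with WA. The lowest WA library was well above the highest untreated library of either line. This was a log2 fold change of 3.64 (SE 0.28, edgeR adjusted p = 4.8e-06) in MM1S and 2.65 (SE 0.26, edgeR adjusted p = 2.6e-05) in MM1R, or 12.45-fold and 6.29-fold. MLYCD, a neighbour of the same strand, shares 8.2% of its exon bases.

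Within passage pairs, on the scale of log2(CPM + 0.5), the 6 called genes were higher with WA in 6 of 6 pairs. This follows from groups that did not overlap and is not a separate result. The changes ran from 0.87 to 1.42 for GCLM, from 0.40 to 0.69 for GCLC, from 0.25 to 1.08 for TXNRD1, from 0.29 to 1.24 for SRXN1, from 0.65 to 1.52 for NQO1 and from 2.15 to 2.99 for OSGIN1. GSR and PRDX1 were higher in 5 of 6 pairs and TXN in 4 of 6. No share over all genes was computed for pairs, so these counts are not read as a result. Passage 7 of MM1R had the smallest change of its line for TXNRD1, SRXN1, NQO1, TXN, GSR and PRDX1, the last 3 being lower with WA there, but not for GCLM, GCLC or OSGIN1. Passage 22 had the largest change of the MM1S pairs for GCLM, GCLC, TXNRD1, SRXN1, GSR and PRDX1.

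**Figure D3:**
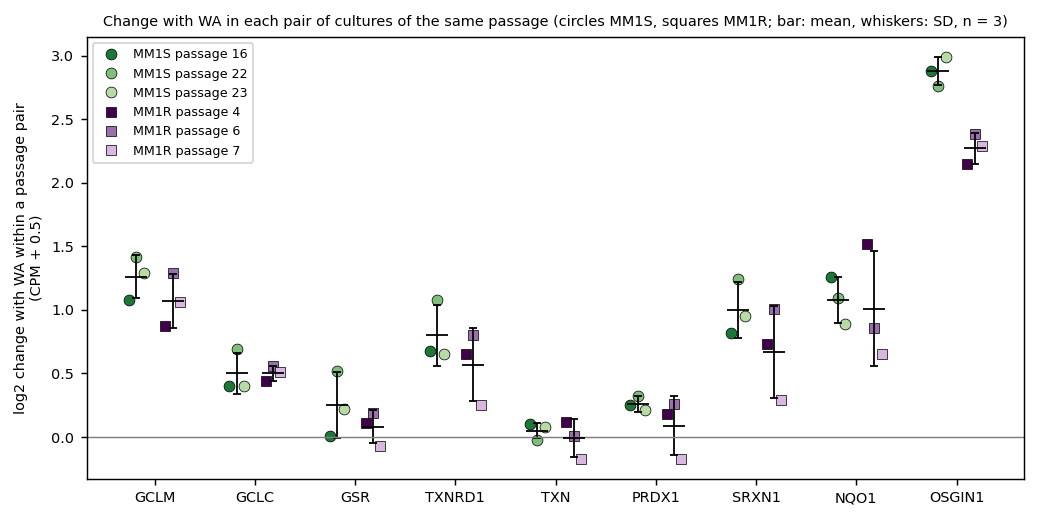
Log2 change with WA (vertical axis, log2 of CPM + 0.5) within each pair of cultures of the same passage for the 9 genes, MM1S as circles and MM1R as squares, with the mean as a bar and the SD as whiskers (n = 3). The 6 called genes lie above 0 in all 6 pairs, from 0.25 for TXNRD1 in MM1R passage 7 to 2.99 for OSGIN1 in MM1S passage 23, while TXN, GSR and PRDX1 reach down to -0.17, -0.07 and -0.17.

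Between genes, levels were compared as CPM per kb of exon, taken over all GENCODE exons of a gene. This length includes exons outside the canonical transcript, and the order between genes depends on it. TXN was the highest in all 4 groups, at 308 ± 26.0 CPM per kb in untreated MM1S and 375 in untreated MM1R with libraries from 277 to 477 (SD, n = 3), followed by PRDX1 at 123 ± 42.4 and 211 ± 38.3. In each group no library of PRDX1 reached the range of TXN, and none of the next genes reached that of PRDX1. GSR, TXNRD1 and SRXN1 came next. In untreated MM1R they overlapped, at 42.5 ± 8.65 CPM per kb for SRXN1, 39.9 ± 2.91 for GSR and 35.9 ± 4.09 for TXNRD1. In untreated MM1S, GSR at 47.2 ± 1.68 CPM per kb was above TXNRD1 at 40.1 ± 4.17, and SRXN1 at 36.1 ± 3.46 was within the range of TXNRD1. With WA the order of these 3 was SRXN1 at 73.3 ± 14.4, TXNRD1 at 70.7 ± 14.1 and GSR at 56.6 ± 9.04 in MM1S, where all overlapped, and 67.6 ± 11.3, 53.4 ± 8.93 and 42.2 ± 3.38 in MM1R, where GSR lay below both.

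GCLM, GCLC and NQO1 formed a lower tier, at 4.55 ± 0.388, 4.29 ± 0.321 and 4.61 ± 0.585 CPM per kb in untreated MM1S, where their ranges overlapped. In untreated MM1R, GCLC at 4.73 ± 0.16 was above GCLM at 4.03 ± 0.196, and NQO1 at 3.18 ± 1.36 overlapped with GCLM. With WA, GCLM led this tier at 11.2 ± 2.05 in MM1S and 8.61 ± 1.1 in MM1R. It overlapped with NQO1 at 9.9 ± 0.599 in MM1S but not with NQO1 at 6.24 ± 0.91 in MM1R, while GCLC was at 6.08 ± 0.4 and 6.72 ± 0.399. OSGIN1 was last throughout, at 0.111 ± 0.0419 and 0.234 ± 0.0235 untreated and at 1.39 ± 0.314 and 1.48 ± 0.202 with WA, in MM1S and MM1R.

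Next, the lines were compared, since MM1R differs from MM1S in glucocorticoid sensitivity. None of the 9 genes was called between untreated MM1R and MM1S by the rule for the lines, which asked for an adjusted p under 0.01 together with a change of at least 1 on the log2 scale and which 2.97% of all genes passed. At an adjusted p of 0.05 with no fold limit, which 11.9% of genes passed, OSGIN1 alone of the 9 was called, being higher in MM1R by a log2 fold change of 1.07 (SE 0.31, edgeR adjusted p = 0.036) on 9 to 26 reads per library. This call was lost in 5 of the 12 fits that left out 1 library, namely without untreated MM1S of passage 22 (edgeR adjusted p = 0.14) or 23 (0.16) and untreated MM1R of passage 4 (0.064), 6 (0.11) or 7 (0.062), and in a fit of the compared libraries alone (0.077). PRDX1 was 0.77 higher in MM1R (SE 0.24, edgeR adjusted p = 0.054). Without untreated MM1S of passage 16 this difference was 1.09 (edgeR adjusted p = 0.0064), and without both libraries of that passage 1.09 (0.00023) for PRDX1 and 1.42 (0.0064) for OSGIN1, which both then passed the stricter rule. PRDX1 also passed 0.05 with no filter on low counts (6.1e-06) and in DESeq2 (0.014). NQO1 had a log2 fold change of -0.54 (SE 0.24, edgeR adjusted p = 0.17). For NQO1 this value turned on single libraries, at -0.90 (0.02) without untreated MM1R of passage 7 and -0.27 (0.39) without passage 4, and with no filter it was -0.55 (0.032). In the fit of all libraries the other 6 genes lay between -0.24 and 0.28.

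With WA, none of the 9 genes was called between MM1R and MM1S by the stricter rule, which 3.04% of genes passed. By the adjusted p of 0.05, which 12% of genes passed, GSR was called and was lower in MM1R, by a log2 fold change of -0.43 (SE 0.12, edgeR adjusted p = 0.035). The GSR call was lost in 7 of the 12 fits that left out 1 library, at adjusted p of 0.054 to 0.18, and in a fit of the compared libraries alone (0.1). These 7 libraries were untreated MM1S of passage 22, MM1S with WA of passages 22 and 23, untreated MM1R of passage 6 and all 3 of MM1R with WA. The corresponding values were -0.67 (SE 0.23, edgeR adjusted p = 0.076) for NQO1, -0.37 (SE 0.14, 0.1) for GCLM, -0.40 (SE 0.16, 0.12) for TXNRD1 and 0.59 (SE 0.24, 0.13) for PRDX1. Without both passage 16 libraries, PRDX1 was 0.90 higher in MM1R (edgeR adjusted p = 0.00088), and GCLM at -0.52 (0.009), TXNRD1 at -0.54 (0.022) and GSR at -0.54 (0.0053) were lower, which passed 0.05 but not the fold limit. Leaving out MM1S with WA of passage 16 alone gave -0.52 (0.013) for GCLM, -0.54 (0.028) for TXNRD1 and 0.90 (0.013) for PRDX1. With no filter on low counts, NQO1 (0.0022), PRDX1 (0.0012) and TXNRD1 (0.045) passed 0.05 as well, and NQO1 did so in DESeq2 (0.039), in a fit of the compared libraries alone (0.022) and without untreated MM1R of passage 4 (0.019) or 7 (0.025). With WA, GSR was at 143 to 166 CPM in MM1R and 171 to 236 CPM in MM1S, without overlap. The untreated lines did not overlap for GSR either, at 133 to 154 CPM in MM1R and 164 to 176 CPM in MM1S. The same held for NQO1 with WA and for untreated PRDX1 and OSGIN1. No share over all genes was computed for overlap between lines, so it is not read as a result.

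Whether the lines responded differently was tested as an interaction, the log2 change with WA in MM1R less that in MM1S. No gene of the 14085 passed an adjusted p of 0.05 (0%) in edgeR, with 97 genes at an unadjusted p under 0.05, and DESeq2 called 1 gene, none of the 9. The difference was -0.98 (SE 0.38, edgeR unadjusted p = 0.021, adjusted p = 1.0) for OSGIN1, -0.35 (SE 0.25) for SRXN1, -0.24 (SE 0.22) for TXNRD1, -0.20 (SE 0.20) for GCLM and 0.01 (SE 0.14) for GCLC, and the other 4 were at -0.09 to -0.18. Of the 9 genes, 8 were below 0, as were 7714 of all 14085. An adjusted p above the threshold does not show that the lines responded alike.

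Other genes of the same pathways were taken from lists written by hand. Among 29 tested genes of glutathione synthesis, use and transport other than the 9, 4 were called higher and 1 lower with WA in MM1R, and 3 and 0 in MM1S, with medians of -0.04 and 0.03. Genes lower with WA made up 6.46% of all tested in MM1R and 4.23% in MM1S. With replicate block the calls were 6 and 1 in MM1R and 5 and 2 in MM1S. That fit called 14.7% of all genes higher and 14.4% lower in MM1R, and 12.5% and 11.7% in MM1S, and these shares are the background of the block counts of all lists. SLC7A11 and SLC3A2, which form the antiporter that imports cystine, rose in both lines. SLC7A11 went from 17.9 ± 11.4 to 57.4 ± 22.2 CPM in MM1S (log2 fold change 1.68, SE 0.42, edgeR adjusted p = 0.022) and from 8.97 ± 2.65 to 42.9 ± 16.6 CPM in MM1R (2.25, SE 0.44, edgeR adjusted p = 0.0044). SLC3A2 had log2 fold changes of 1.39 and 1.64. GLRX, a glutaredoxin, which removes glutathione from protein thiols, had 0.52 in MM1S and 0.46 in MM1R. CHAC1, which degrades glutathione (3.49, edgeR adjusted p = 0.025), and the mitochondrial carrier SLC25A40 (-0.44, 0.049) passed in MM1R but not in MM1S, at 1.90 (0.19) and -0.37 (0.11). They are named after their values were seen.

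Of 18 further tested genes of the thioredoxin system, 1 was called higher and 1 lower in MM1R, and 1 and 0 in MM1S, with medians of -0.04 and 0.08, and with replicate block 2 were higher and 1 lower in MM1S. SESN3, a sestrin, rose by 2.37 (SE 0.44, edgeR adjusted p = 0.0042) in MM1S and 2.71 (SE 0.45, edgeR adjusted p = 0.0017) in MM1R. TXNIP, the inhibitor of thioredoxin, passed in MM1R at -0.78 (edgeR adjusted p = 0.042) and not in MM1S at -0.63 (0.11), and is named after its values were seen. The peroxiredoxins PRDX2 to PRDX6 did not pass, with log2 fold changes of -0.20 to 0.19. TXN2 and TXNRD2, the mitochondrial counterparts of TXN and TXNRD1, were at 0.08 and 0.09 in MM1S and -0.02 and 0.25 in MM1R and did not pass.

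NADPH, which feeds both reductases and NQO1, comes from the pentose phosphate pathway and from malic enzyme, isocitrate dehydrogenase and folate enzymes. Of 16 genes of its supply, 1 was called higher and 2 lower in MM1R, and 1 and 1 in MM1S, with medians of -0.14 and -0.10. With replicate block these counts were 3 and 4, and 3 and 3. RPIA, an isomerase of the pentose phosphate pathway, fell in both lines, by 0.79 (edgeR adjusted p = 0.014) in MM1S and by 0.88 (edgeR adjusted p = 0.0067) in MM1R on the log2 scale. PGD, a dehydrogenase of the same pathway, did not pass, at -0.11 in MM1S and -0.20 in MM1R. ME1 passed in MM1S (0.63, edgeR adjusted p = 0.023) and not in MM1R (0.46, 0.069). The folate enzymes MTHFD2 (0.79, 0.025) and MTHFD1 (-0.48, 0.048) passed in MM1R but not in MM1S, at 0.66 (0.064) and -0.37 (0.14). With replicate block, ME1, MTHFD2 and MTHFD1 were called in both lines. These 3 are named after their values were seen.

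Of 29 NRF2 targets outside the 9 genes, 22 were tested, of which 5 were called higher and 1 lower in MM1R and 4 and 1 in MM1S, with medians of 0.15 and 0.18. With replicate block the calls were 7 and 2, and 8 and 2. HMOX1, which degrades haem, had log2 fold changes of 6.92 in MM1S and 6.62 in MM1R. SLC48A1, a haem transporter, had 0.73 in MM1S and 0.61 in MM1R. MAFG, a small MAF partner of NRF2, had 0.92 and 0.73, and the quinone reductase NQO2 had 0.64 and 0.54. PIR was called in MM1R (1.42, edgeR adjusted p = 0.016) and not in MM1S (0.76, 0.18), and with replicate block in both lines. PIR and TIPARP, lower in both lines (-0.43 in MM1S, -0.35 in MM1R), are named after their values were seen.

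Among 10 regulators of NRF2, 3 were called higher and 0 lower in each line, with medians of 0.14 in MM1R and 0.26 in MM1S, and with replicate block 4 and 1, and 5 and 0. MAFF rose by 1.14 in MM1S and 1.19 in MM1R, NFE2L1 by 0.55 and 0.59 and the repressor BACH1 by 0.52 and 0.49. NFE2L2, which encodes NRF2, was at 0.19 (SE 0.13, edgeR adjusted p = 0.42) in MM1S and 0.02 (SE 0.13, edgeR adjusted p = 0.96) in MM1R. Of 4 further antioxidant genes, SOD1 rose by 0.71 in MM1S and 0.65 in MM1R, whereas CAT, SOD2 and PARK7 lay between -0.05 and 0.20 and did not pass.

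**Figure D4:**
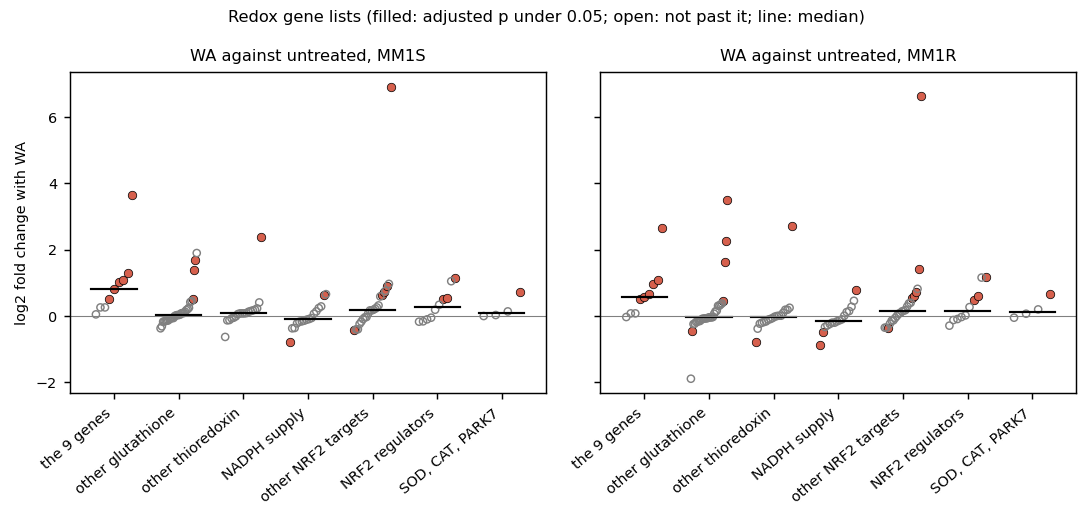
Log2 fold change with WA (vertical axis) in MM1S and MM1R for the 9 genes and for 6 lists of genes of related function, filled where the adjusted p was under 0.05 and open elsewhere, with the median of each list as a line. The median of the 9 genes is 0.82 in MM1S and 0.57 in MM1R, and those of the lists lie between -0.10 and 0.26 and between -0.14 and 0.15.

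The 9 genes did not share 1 pattern over the 12 libraries. Against the mean of their standardised levels, Pearson's r was 0.98 for SRXN1, 0.93 for GCLM, 0.92 for GCLC, 0.89 for TXNRD1 and OSGIN1 and 0.84 for NQO1, but 0.53 for GSR, 0.34 for TXN and 0.21 for PRDX1. Each of the 9 is itself part of this mean, which raises its r, so these values cannot be set against those of other genes. The other genes closest to this mean were MED20 (0.963), TXLNA (0.962), CACYBP (0.961), EIF5 (0.961), TMEM97 (0.961), HMMR (0.96), HIBCH (0.957) and HSPA8 (0.957), out of all genes tested. HSPA8, a constitutive chaperone, had log2 fold changes of 1.78 in MM1S and 1.75 in MM1R, and TXLNA of 0.22 and 0.18, so that a like pattern went with changes of unlike size. These correlations describe 12 libraries that share treatment and line, and were not tested.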

How the data were processed

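Total RNA of 12 cultures was sequenced. The authors sequenced the libraries as paired ends, checked reads with FastQC 0.11.5, mapped them with STAR 2.7.3a to hg19 and deposited a table of raw counts per gene, with no normalization. Which gene models and strand option were used for counting is not given in the sources used here. A further deposited table, of normalized values, was not used.

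Groups, passage, dose and time were taken from the labels. The members and the gene lists were chosen with earlier results of these data known. Genes were kept by edgeR's filterByExpr (minimum count 10), which left 14085 of 26497 genes with a read. Libraries were scaled by TMM, and edgeR's quasi-likelihood test (edgeR 4.0.16, R 4.3.3) was run in 1 fit of 12 libraries and 4 groups, with Benjamini-Hochberg adjustment over all genes. CPM are TMM-normalised. SEs were derived from the fold change and the F statistic. Differences between partner genes within a passage used log2(CPM + 0.5) and an exact sign-flip test. The fits were tested on simulated data. From each list, up to 4 genes called in both lines were named, in order of the larger of the 2 adjusted p, and further called genes are marked as such.

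Alternatives comprised size factors of DESeq2 in place of TMM, no filter, at least 10 reads in every library, DESeq2 1.42.0, only the libraries compared, the replicate block with either tool, an adjusted p of 0.05 for the lines, a pseudocount of 2, and each library left out. Leaving out both MM1S libraries of passage 16 was added after seeing the data.

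Replicates were described as biologically independent samples in the study's methods. Replicates differed by more than sampling noise, with chi-square per degree of freedom between 8.36 and 47.1. Passage number was treated as pairing the cultures, since the deviations of the untreated and WA cultures of the same passage from their group means correlated at 0.74, 0.26 and 0.49 (MM1S passages 16, 22 and 23) and at 0.43, 0.22 and 0.25 (MM1R passages 4, 6 and 7). In MM1S, untreated passage 22 also correlated at 0.35 with WA passage 23, above its own passage, and untreated passage 23 at 0.42 with WA passage 22. No molecular identifiers are described, so that counting limits cover counting error only. Lengths are exon unions of GENCODE, and promoter windows are those of RefSeq.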

Additional observations from a re-analysis of the deposited data

How the results depend on the processing

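With the replicate block in edgeR, the same 6 genes were called with WA in each line and no call among the 9 changed, while the genes called overall went from 1973 to 4094 in MM1R and from 1476 to 3399 in MM1S (3399 and 2901 with DESeq2 and the block), and the interaction from 0 to 6 with DESeq2 and the block. With single libraries left out, 3 to 6 of the 9 were called with WA in MM1R, the 3 without untreated passage 6, and 0 to 1 between untreated lines, and all 6 held in MM1S. Genes called overall then ranged from 950 to 2396, from 726 to 1621, from 268 to 537 (untreated lines, 419 with all libraries) and from 264 to 649 (lines with WA, 428 with all). The 2 counts between lines were 811 and 819 without a filter, 234 and 222 where every library had 10 or more reads, and 1681 and 1690 at an adjusted p of 0.05 alone, which called 1 of the 9 in each. Without both MM1S libraries of passage 16 they were 755 and 817, with 2 of the 9 called between untreated lines, and 690 genes were called with WA in MM1S, NQO1 no longer among them. The interaction called 11 genes without a filter and 1 with DESeq2, none of the 9. Only values that were never called changed sign. TXN with WA in MM1R was 0.00 under that stricter filter. With libraries left out, TXN ranged from -0.21 to 0.18 in MM1R and from -0.02 to 0.11 in MM1S, and PRDX1 from -0.03 to 0.23 and from -0.05 to 0.58. Between lines with WA, SRXN1 ranged from -0.27 to 0.01 and OSGIN1 from -0.03 to 0.28. The interaction ranged from -0.05 to 0.06 for GCLC (-0.04 without both passage 16 libraries), from -0.40 to 0.23 for NQO1, from -0.27 to 0.12 for TXN and from -0.50 to 0.13 for PRDX1. The causes of these changes were not tested, beyond that fewer libraries or another gene set enter the fit. The mean differences between partner genes were recomputed with a pseudocount of 2, DESeq2's size factors and each of the 6 pairs left out, and kept their sign, at 0.62 to 0.72 (GCLM and GCLC), 0.58 to 0.72 (TXNRD1 and TXN), 0.61 to 0.70 (SRXN1 and PRDX1) and 0.49 to 0.56 (TXNRD1 and GSR). OSGIN1 had at most 26 reads in an untreated library, which limits the precision of its fold change.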

Other observations

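Between untreated lines, 1 of the 29 tested glutathione genes and 1 of the 22 tested NRF2 targets outside the 9 passed the rule for the lines. None of the thioredoxin, NADPH supply and regulator lists did. As 2.97% of all genes passed that rule, these counts are not read as a result about the lists. MGST1, a membrane-bound glutathione transferase, had 382 to 477 reads in the untreated MM1S libraries and 312 to 444 with WA, against 0 or 1 read in the untreated MM1R libraries and 0 in those with WA. CBR3, a carbonyl reductase, was lower in MM1R by a log2 fold change of -1.87 (SE 0.27, edgeR adjusted p = 0.00063) untreated and of -1.95 (SE 0.27, edgeR adjusted p = 0.00043) with WA. These genes and the next were named after their values were seen.

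Like PRDX1, some glutathione genes set passage 16 apart from the other MM1S libraries. GPX1, the main cytosolic glutathione peroxidase, was at 16.9, 1.03 and 0.547 CPM in untreated MM1S of passages 16, 22 and 23, at 19.99, 1.17 and 0.764 CPM with WA, and at 68.1 to 126 CPM in the 6 MM1R libraries. GPX7, a peroxidase of the endoplasmic reticulum, was at 3.73, 0.413 and 0.348 CPM in untreated MM1S, at 3.63, 0.587 and 0.382 CPM with WA, and at 11.4 to 14.6 CPM in MM1R. In both genes the passage 16 cultures lay between the other MM1S cultures and those of MM1R. The log2 difference between untreated MM1R and MM1S was 3.98 for GPX1 (SE 1.04, edgeR adjusted p = 0.024) and 3.14 for GPX7 (SE 0.72, edgeR adjusted p = 0.013). Without both passage 16 libraries it was 6.94 (edgeR adjusted p = 4.3e-08) and 5.09 (3.3e-08), on at most 2162 and 250 reads per library. What sets passage 16 apart was not tested.

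SQSTM1, an autophagy receptor and NRF2 target, has 2 entries in the table, with 1 to 12 and 0 to 10 reads per library, and was not tested.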
